A study of Rattus norvegicus with 15 samples.

Results

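The 2 mature products of the rat Mir22 hairpin, printed on the array as rno-miR-22 and rno-miR-22*, were followed across control, diabetic and glucose-fluctuation hearts. They were chosen by name, as every probe whose miRNA name equalled either one, after earlier results of these arrays had shown lower miR-22* in the glucose-fluctuation hearts, so the differences from control that led to the choice are given as descriptions with their standard errors and no p-value. They are 2 of the 350 rat miRNAs on the array, both of them among the 165 that were bright enough to test, and they form 1 of the 23 arm pairs with both arms tested.

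Total RNA from hearts of male Sprague-Dawley rats was hybridised to 15 single-colour (Cy3) arrays, 5 per group. Control animals, labelled Veh, received vehicle. Animals labelled DM, for diabetes mellitus, received intravenous streptozotocin at 60 mg/kg, a toxin that kills pancreatic beta cells and leaves blood glucose high. Animals labelled GF received the same streptozotocin, and their glucose was then made to fluctuate by a 24 h fast and intraperitoneal insulin at 0.5 IU/kg, so GF differs from DM by fast and insulin together, which cannot be told apart, and shares streptozotocin with it. The study's title sets the fluctuating state against sustained hyperglycemia. The labels give neither the animals' age nor whether each array is a separate animal, so the spread between samples may be partly technical.

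A miRNA hairpin is cut by Drosha in the nucleus and by Dicer in the cytoplasm into a short duplex, and one strand is usually kept in an Argonaute protein while the other, the passenger or star strand, is mostly degraded. Both strands start from the same transcript, but loading and decay act on each strand separately, and the seed near the 5′ end of each decides which messenger RNAs it pairs with. miR-22 is one of the abundant miRNAs of striated muscle. It is known to rise in hypertrophic cardiomyocytes, and mice lacking it grow less cardiac hypertrophy under stress and dilate instead, with Sirt1 and Hdac4 among its studied targets.

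The sequences of the arms are shown because they differ in the seed, so that each arm addresses its own targets, and because their pairing shows that they are opposite strands of one duplex. In the RefSeq table (build GRCr8) Mir22 lies on the plus strand at chr10:60805331-60805425, and no other gene of the table contains the whole of it. The nearest protein-coding genes are Wdr81, 11660 bases before it, and Tlcd2, 3966 bases after it. The arm called miR-22 on the array is now named miR-22-3p (chr10:60805387-60805408) and the arm called miR-22* is now miR-22-5p (chr10:60805349-60805370). Bases 2 to 8, the seed, are in capitals in the mature sequences, and the arms are in capitals in the hairpin, 5′ arm first.
miR-22 (3p): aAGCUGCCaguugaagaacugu
miR-22* (5p): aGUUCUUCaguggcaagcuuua
Mir22 hairpin: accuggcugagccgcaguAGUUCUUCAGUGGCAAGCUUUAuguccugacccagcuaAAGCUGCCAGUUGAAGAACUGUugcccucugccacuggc

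Each arm is 22 bases long and starts with A, and the arms stand 16 bases apart in the 95-base hairpin. In the fold of lowest predicted energy (-43.0 kcal/mol), 19 of the 22 bases of each arm pair with the opposite arm. GC content was 45.5% for miR-22 and 40.9% for miR-22*. Neither seed, AGCUGCC or GUUCUUC, is shared with any other of the 693 mature rat miRNAs in the table, so no seed family could be read beside either arm.

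Pairs of arrays that lie very close have to be named before any value, though the labels do not say whether they share an animal or its RNA. In 5 pairs of the same group, each split over the 2 slides, the arrays differed by less than the error that the scanner software states for each miRNA (reduced chi-square 0.243 to 0.63 over 156 miRNAs, where all other pairs of arrays gave 1.07 or more). Each such pair was averaged and counted as 1 sample: control 1 and 3, DM 2 and 4, DM 3 and 5, GF 1 and 5, and GF 2 and 4. That leaves 10 distinct samples, 4 control, 3 DM and 3 GF. One further array, control 5, lay nearer to DM 1 (1.15) than to any other control array (3.25 to 4.09), and values without it are given below. The signal used for scaling, the 75th percentile of 254 probes bright on every array, averaged over the arrays of each distinct sample, ranged from 1831 to 2441 in control, from 1749 to 2253 in DM and from 2170 to 3120 in GF. Summed signal of the striated muscle miRNAs (miR-1, miR-133a, miR-133b, miR-208, miR-499 and miR-206) was 124300 to 170800 in control, 126700 to 135900 in DM and 114900 to 132800 in GF, with 5 of the 6 bright enough to test and miR-206, the skeletal muscle member, not. The liver marker miR-122 and the islet marker miR-375 sat at the lowest measurable signal (19.8) in every sample.

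Both arms were measured well above background in all 15 arrays. miR-22 was read by 2 probes of 10 spots each and miR-22* by 1 probe of 20 spots, and no spot was saturated. By brightness, which mixes probe affinity with abundance and so gives no ratio of the strands, the brighter miR-22 probe ranked 3rd among the 165 tested miRNAs and the miR-22* probe 86th. Spots of miR-22* varied within an array by 2.54% to 13.5% (coefficient of variation), against 1.37% to 5.34% for the brighter miR-22 probe. Those of the dimmer miR-22 probe varied by 1.71% to 12.8%, so such spread is not particular to miR-22*. The 2 arms were also read by different scans of the slide: all 10 spots of the brighter miR-22 probe were taken from the less sensitive second scan and scaled up on all 15 arrays, none of the spots of miR-22* was on any array, and the dimmer miR-22 probe had 0 to 10 such spots per array. The plot of single probes by array shows the averaged pairs, which were picked for their closeness over all miRNAs. Within the 5 averaged pairs, scaled log2 signals differed by 0.032 to 0.167 for miR-22* and by 0.0075 to 0.135 for miR-22, while the SD between distinct samples of one group averaged 0.158 and 0.152. In the log2 ratio of miR-22* to miR-22 the same pairs differed by 0.0512 to 0.278, beside an average SD of 0.137.

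**Figure D1:**
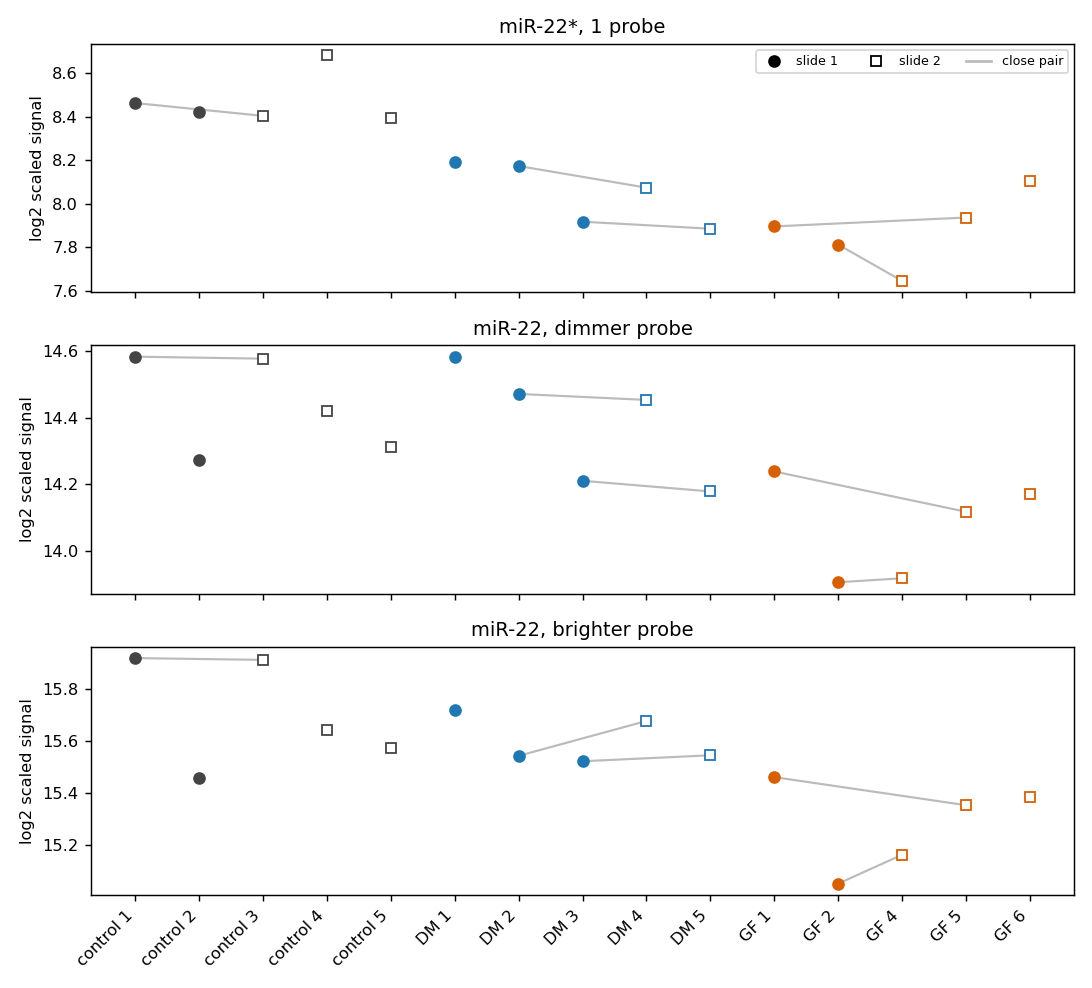
Scaled log2 signal of each miR-22* and miR-22 probe on each of the 15 arrays, in control (grey), DM (blue) and GF (orange); filled circles are slide 1, open squares slide 2, and grey lines join the 5 pairs of arrays averaged as 1 sample. The joined arrays differ by at most 0.167 for miR-22* and 0.135 for the brighter miR-22 probe.

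miR-22*, the passenger arm, was lower in both streptozotocin groups than in control. Its scaled log2 signal was 8.43 in control 1 and 3, 8.42 in control 2, 8.68 in control 4 and 8.39 in control 5, with a mean of 8.48 ± 0.134 (SD, n = 4). In DM it was 8.19 in replicate 1, 8.12 in replicates 2 and 4 and 7.90 in replicates 3 and 5, with a mean of 8.07 ± 0.152 (SD, n = 3). In GF it was 7.92 in replicates 1 and 5, 7.73 in replicates 2 and 4 and 8.11 in replicate 6, with a mean of 7.92 ± 0.189 (SD, n = 3). Every DM and every GF sample lay below the lowest control, and control 4 stood above the other controls. DM and GF overlapped, since GF 6 lay above DM 3 and 5.

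The difference of miR-22* from control was -0.56 (SE 0.117) on the log2 scale in GF, a 1.48-fold lower signal, and -0.41 (SE 0.117) in DM. These comparisons share the control samples and are set side by side, not counted as separate evidence. Among the 165 tested miRNAs, miR-22* was the 11th lowest in GF against control and the 6th lowest in DM against control, where the medians of all tested miRNAs were -0.05 and 0.03. In the limma fit over all tested miRNAs with Benjamini-Hochberg adjustment, 13 of 165 (7.88%) passed in GF against control, miR-22* among them and miR-22 not. In DM against control none passed (0%), with 14 at an unadjusted p under 0.05. Groups that did not overlap and were lower than control were found for 19.4% of the tested miRNAs in GF and 4.85% in DM. These contrasts led to the choice of the members, so nothing is read from their counts or from the pass of miR-22*.

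miR-22 itself, the guide arm, was lower in GF than in control and DM, and control and DM lay together. Its scaled log2 signal was 15.91 in control 1 and 3, 15.46 in control 2, 15.64 in control 4 and 15.57 in control 5, with a mean of 15.65 ± 0.194 (SD, n = 4). In DM it was 15.72 in replicate 1, 15.61 in replicates 2 and 4 and 15.53 in replicates 3 and 5, a mean of 15.62 ± 0.0945 (SD, n = 3). In GF it was 15.41 in replicates 1 and 5, 15.11 in replicates 2 and 4 and 15.38 in replicate 6, a mean of 15.30 ± 0.168 (SD, n = 3). All 3 GF samples lay below all control and DM samples, GF 1 and 5 only just below control 2, and the DM samples fell inside the control range.

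The difference of miR-22 from control was -0.35 (SE 0.121) in GF and -0.03 (SE 0.121) in DM. It was the 27th lowest of 165 in GF and the 60th lowest in DM. Its dimmer probe, read from its own spots, gave -0.31 in GF and 0.02 in DM, so both probes put GF below control and DM at control. In bulk heart RNA, fewer cells of a type and less RNA per cell cannot be told apart, for this and for every difference below.

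Levels of miR-22* thus ran from control through DM to GF, with DM and GF not separated beyond their spread, and levels of miR-22 from control and DM, not separated, to GF. The plot of both arms by sample shows this order and how it depends on the scaling between arrays.

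**Figure D2:**
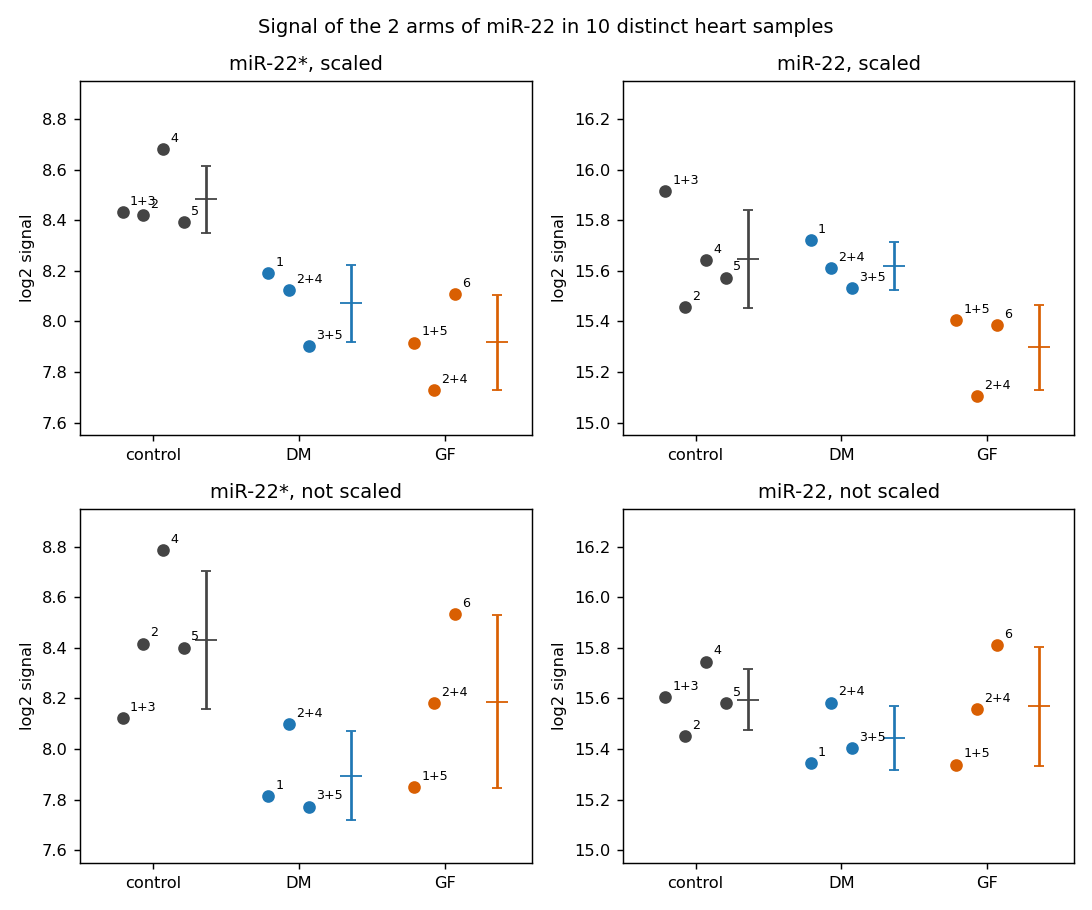
log2 signal of miR-22* (left) and of the brighter miR-22 probe (right) in the 4 control, 3 DM and 3 GF distinct samples, scaled to a common 75th percentile (top) and not scaled (bottom); numbers are replicates, joined by + where arrays were averaged, and bars give mean ± SD. Scaled miR-22* lies below every control in DM and GF. Unscaled, only DM does, by a narrow margin that single arrays do not keep.

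The unscaled signals bear on the GF differences directly. Unscaled signal of miR-22* was 278.6 to 441.3 in control, 218.7 to 274.1 in DM and 230.6 to 370.3 in GF. DM stayed below every control, by a narrow margin (274.1 in DM 2 and 4, 278.6 in control 1 and 3), and GF overlapped control. On single arrays DM overlapped control as well, since DM 2 stood at 326.2, above control 1 (275.6) and control 3 (281.6). Unscaled signal of miR-22 was 44830 to 54960 in control, 41590 to 49130 in DM and 41460 to 57440 in GF, and all groups overlapped. Without scaling, the GF minus control difference was -0.24 for miR-22* and -0.03 for miR-22, while the middle of the tested miRNAs shifted too, its median going from -0.05 to 0.25. Relative to that median, miR-22* stood at -0.51 with scaling and -0.49 without it, and miR-22 at -0.29 and -0.27. These values had to be close, because scaling multiplies a whole array by a common factor. The GF differences are therefore differences from the bulk of the miRNAs on the same array, and whether each arm fell in absolute amount in GF was not tested. In DM, miR-22* stood at -0.44 relative to the median with scaling and without it.

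The comparison of GF with DM asks what fasting and insulin add to diabetes, and it is the contrast that did not choose the members, though it uses the same samples. miR-22 was lower in GF by a log2 difference of -0.32 (SE 0.129, 95% confidence interval -0.61 to -0.03), with all 3 GF samples below all 3 DM samples, and the adjusted p was 0.41 (limma, Benjamini-Hochberg over 165 miRNAs). miR-22* differed by -0.15 (SE 0.125, interval -0.43 to 0.13), with an adjusted p of 0.65 (limma). No tested miRNA passed in this contrast (0%), and 18 had an unadjusted limma p under 0.05. A lower GF group with no overlap was found for 12.7% of the tested miRNAs, so the separation of miR-22 is shared with many others. Without scaling both differences turned positive, 0.12 for miR-22 and 0.29 for miR-22*, under a median of all tested miRNAs of 0.36. Relative to the median they were -0.24 and -0.07 with scaling, and -0.23 and -0.06 without it.

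The ratio of the arms within each sample removes any scaling that is common to an array, although the factor that joins the 2 scans remains in it. As log2 of the miR-22* signal over the brighter miR-22 signal, the ratio was -7.48 in control 1 and 3, -7.04 in control 2, -6.96 in control 4 and -7.18 in control 5, a mean of -7.16 ± 0.231 (SD, n = 4). In DM it was -7.53 in replicate 1, -7.49 in replicates 2 and 4 and -7.63 in replicates 3 and 5, a mean of -7.55 ± 0.0747 (SD, n = 3). In GF it was -7.49 in replicates 1 and 5, -7.38 in replicates 2 and 4 and -7.28 in replicate 6, a mean of -7.38 ± 0.107 (SD, n = 3). All DM ratios were below all control ratios, but control 1 and 3 lay only just above the highest DM value. GF 2 and 4 and GF 6 lay inside the control range at its lower end, and GF 1 and 5 lay just below the lowest control and inside the DM range. The probes differ in affinity, so the level of the ratio is no strand ratio and only its differences between samples are read.

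The ratio was lower than control by -0.38 (SE 0.117) in DM and -0.22 (SE 0.117) in GF. Arrays averaged as 1 sample differed in it by up to 0.278 (GF 2 and 4), more than the GF difference, and DM 2 and 4 by 0.234. Among the 23 arm pairs with both arms tested, the miR-22 ratio had the lowest difference in DM and the 3rd lowest in GF, where the medians over pairs were -0.04 and 0.05. Each ratio set the starred arm over its partner, or the 5p arm over the 3p arm where the names gave those, whichever was brighter. These ranks and medians hold for that direction only. With its arms exchanged, miR-139 (5p over 3p 1.24 in DM and 1.2 in GF) would be the lowest. In the limma fit over arm pairs with Benjamini-Hochberg adjustment, 1 pair (4.35%), miR-20a* and miR-20a, passed in GF against control at -0.38. No pair passed in DM against control (0%, with 1 pair at an unadjusted p under 0.05). Lower DM ratios with no overlap with control were found for 1 of 23 pairs (4.35%), that of miR-22. The contrasts with control led to the choice of the members, so nothing is read from these counts. Beside miR-22, the lowest GF differences were those of miR-20a and of miR-29c (-0.23), a family that represses collagens, and the highest were those of miR-139 (1.2, SE 0.678), miR-9 (0.26), a neural miRNA, and miR-532 (0.18). For GF against DM the miR-22 ratio differed by 0.17 (SE 0.125, interval -0.11 to 0.45), with a limma adjusted p of 0.55 over 23 pairs, and no pair passed (0%, 2 at an unadjusted p under 0.05).

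**Figure D3:**
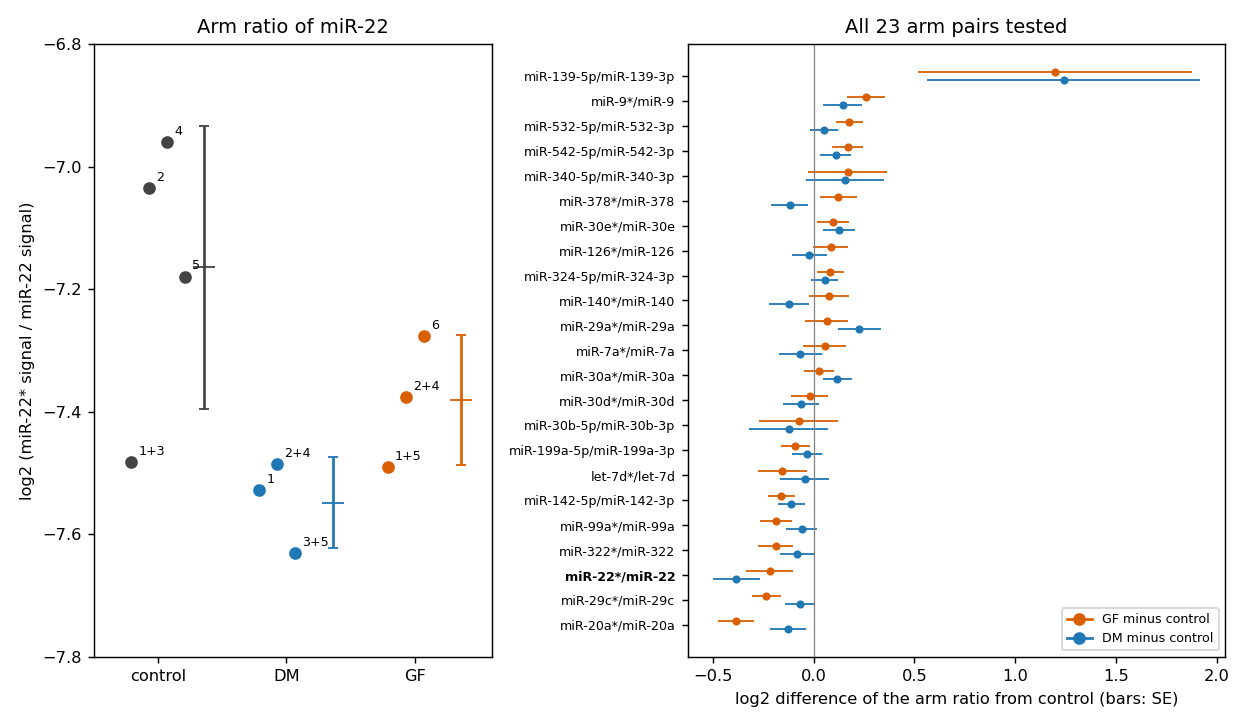
Left, log2 ratio of miR-22* to miR-22 signal in each distinct sample with mean ± SD, replicates numbered. Right, difference of the arm ratio from control with its SE for all 23 arm pairs tested, in GF (orange) and DM (blue), ordered by GF. miR-22 has the lowest DM difference (-0.38) and the 3rd lowest GF difference (-0.22).

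The ratio depends on the background correction and on single controls. With normexp in place of the scanner software's own background subtraction it was -0.22 in DM and -0.16 in GF, and miR-22* itself then differed from control by -0.26 in DM and -0.50 in GF. Without control 1 and 3, whose ratio is the lowest of the control group, the difference of the ratio was -0.49 in DM and -0.32 in GF. Without control 4 it was -0.32 in DM and -0.15 in GF. With the dimmer miR-22 probe in place of the brighter one, a setting added after the data were seen, it was -0.43 in DM and -0.26 in GF.

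Without control 5, the array nearest to a DM array, miR-22* differed from control by -0.59 in GF and -0.44 in DM, miR-22 by -0.37 and -0.05, and the ratio by -0.22 and -0.39. The pass of miR-22* in GF carries no weight, since this contrast led to the choice of the members. It was lost without control 1 and 3 (-0.58), without control 2 (-0.58), without control 4 (-0.50) and without GF 2 and 4 (-0.47). In those 4 limma fits no miRNA passed at all, with 29 to 47 at an unadjusted p under 0.05, and without control 5 as many as 28 passed. Of 14 other settings fitted, 8 kept the pass of miR-22*. It was lost with scaling over all probes (-0.43), with quantile normalization (-0.46) and without scaling (-0.24). The authors' values (-0.25), no filter on dim probes (-0.56) and merging pairs under a reduced chi-square of 1.2 (-0.53) lost it too. With all 15 arrays as samples, which counts the arrays of a close pair as if they were independent, the differences were -0.59 in GF and -0.42 in DM for miR-22* and -0.42 and -0.10 for miR-22, and 60 miRNAs passed in GF against control. Within slide 1 and slide 2 alone, miR-22* stood at -0.59 and -0.60 in GF and at -0.35 and -0.51 in DM, and miR-22 at -0.43 and -0.41 in GF. Each averaged pair is split over the slides, so both slides may hold largely the same samples and are not counted as separate evidence. The plot of the differences under each processing shows miR-22* below 0 throughout, though settings that concern only other probes leave its value unchanged.

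**Figure D4:**
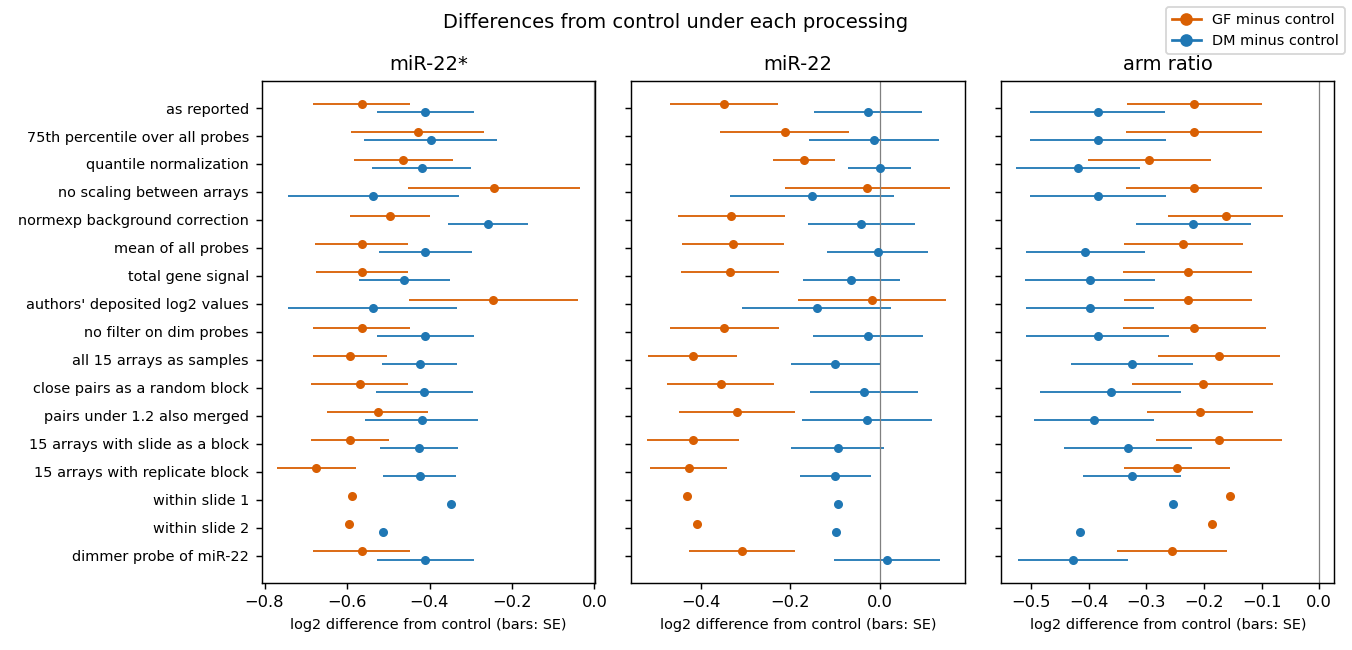
log2 difference from control of miR-22*, miR-22 and their ratio in GF (orange) and DM (blue), as reported (top row) and under each other processing, with SE; points without bars are values within 1 slide. miR-22* stays below 0 in all, from -0.67 to -0.24 in GF, and miR-22 in GF runs from -0.43 to -0.02.

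The authors' deposited table of filtered miRNAs, unscaled log2 values, holds both arms among its 149 miRNAs. Neither arm is among the 35 miRNAs of the authors' deposited table of group tests, whose largest p is 0.0493.

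Over the 10 distinct samples the arms correlated with each other at a Pearson r of 0.65, a description only, since the points share the group differences and the scaling. That placed miR-22 30th among the 164 other tested miRNAs by likeness to miR-22*. The miRNAs most like miR-22* were miR-15b (0.89), let-7c (0.88), the endothelial pair miR-126* (0.87) and miR-126 (0.86), and miR-208 (0.86), which lies in an intron of a cardiac myosin heavy chain gene. Those most unlike it were miR-17 (-0.92) and miR-20a (-0.93), both from a cluster known for promoting cell growth. miR-22 was most like miR-151 (0.88), miR-126 (0.87), miR-15b (0.86), miR-16 (0.85) and miR-146a (0.85), an inhibitor of innate immune signalling, and most unlike miR-20a (-0.77) and miR-19b (-0.81). miR-126, a miRNA of endothelial cells, thus lay near both arms. Its scaled log2 signal was 14.49 in control 1 and 3, 14.23 in control 2, 14.39 in control 4 and 14.18 in control 5, then 14.30, 14.08 and 14.04 in DM and 13.99, 13.88 and 14.00 in GF. As for miR-22, every GF sample lay below every control and DM sample. Such a lower GF group with no overlap was found for 19.4% of the tested miRNAs against control and 12.7% against DM.

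Markers of other cells did not all move with the arms, and their part in the differences was not tested. Summed endothelial, leukocyte and red cell signals were lower in GF than in control, as both arms were, while summed smooth muscle signal overlapped between all groups. The red cell miRNAs had a median of 0.227 in GF against DM, where both arms were lower. Summed endothelial signal (miR-126, miR-126*, miR-221 and miR-222, 3 of the 4 tested) was 19470 to 23980 in control, 17650 to 20980 in DM and 15780 to 17140 in GF, and none of the 3 passed in any contrast. Summed leukocyte signal was 6397 to 6685 in control, 5458 to 6716 in DM and 5104 to 5842 in GF, and 3 of its 6 tested members fell in GF against control (miR-142-5p, miR-146a and miR-342-3p), where 7.88% of all tested miRNAs passed. The other 3 did not pass: miR-142-3p stood at -0.48, miR-150 at -0.01 and the myeloid miR-223 at 0.52. Summed signal of the red cell miRNAs miR-144 and miR-451 was 6148 to 7349 in control, 3447 to 6177 in DM and 4603 to 5936 in GF, and summed smooth muscle signal (miR-143 and miR-145) was 11690 to 18930 in control, 14750 to 16460 in DM and 14210 to 18180 in GF. None of these red cell and smooth muscle miRNAs passed in any contrast.

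miR-22 is usually discussed with other miRNAs of cardiac hypertrophy and stress, and 20 of 22 such miRNAs on a list drawn up for the comparison were tested. In GF against control 1 of the 20 passed the limma test, miR-208, which fell by 1.34 on the log2 scale, and none rose, beside 7.88% of all tested miRNAs. None of the 20 passed in DM against control or in GF against DM. The list's median difference was -0.20 in GF against control, -0.02 in DM against control and -0.16 in GF against DM, beside -0.05, 0.03 and -0.08 over all tested miRNAs. miR-22* at -0.56 and miR-22 at -0.35 in GF were both below the median of the list, and miR-22 in DM (-0.03) was next to it. Lower miR-22* in GF led to the choice of the members, so nothing is read from these places.

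Within 1000000 bases of Mir22 the RefSeq table lists the miRNA genes Mir6326, 143 bases away, and Mir132 and Mir212, 283198 and 283481 bases away, a pair expressed from one transcript and known to promote cardiomyocyte growth. miR-212 was tested. Its scaled log2 signal was 8.49, 7.49, 7.96 and 6.68 in control 1 and 3, 2, 4 and 5, then 6.51, 5.46 and 8.22 in DM and 6.89, 6.47 and 5.69 in GF. The groups overlapped, with differences from control of -1.31 (SE 0.627) in GF and -0.93 (SE 0.627) in DM, and its spread was several times that of either miR-22 arm. miR-132 stood at the lowest measurable signal in every sample.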

How the data were processed

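Each array's scanner output holds intensity values that were deposited as processed, background-subtracted signal (Agilent Feature Extraction 9.5.3.1, per the submitters' processing notes and the file headers). Outlier and control spots were left out, spots of a probe averaged, each array scaled to a common 75th percentile over 254 probes well above background on all 15 arrays, values under 19.8 set to it, and log2 taken. A miRNA was represented by its brightest probe and tested where the scanner software marked that probe as well above background in 3 or more of a group's 5 arrays. Differences were fitted with limma 3.58.1 (R 4.3.3) over all tested miRNAs or arm pairs in 1 fit of 3 groups, two-sided, threshold 0.05 after Benjamini-Hochberg adjustment, after a check on simulated data. Pairs of arrays under a reduced chi-square of 1, from the deposited total gene signals and their stated errors, were averaged. Precision is limited by 10 distinct samples. The authors' deposited log2 table equals the unscaled total gene signal to 2.05e-06, and the p-value column of the authors' deposited test table was read only for its members. RefSeq sequences were folded with ViennaRNA 2.7.2. Alternatives covered scaling, background (normexp, offset 50, on the median signal, since the files used here hold no mean signal), probe summary, filter, merging, slide, replicate number and each sample left out. Named miRNAs are both arms, per arm the 5 most and 2 least correlated miRNAs, arm pairs with the 3 highest and 3 lowest GF ratio differences, seed matches, miRNAs within 1000000 bases, and members of the hypertrophy list that passed. Members, lists and rules were chosen with earlier results of these data known.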

Additional observations from a re-analysis of the deposited data

Results flagged for a closer look

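In the control group, miR-22* was far higher in control 4 (log2 8.68) than in the other 3 samples (8.39 to 8.43), with a gap to the nearest of 0.864 of the group's range, past Dixon's 95% limit for 4 samples. Chance passes that limit in about 1 in 20 groups. Without control 4 the difference of miR-22* from control was -0.50 in GF and -0.34 in DM.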

How the results depend on the processing

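miR-22* was below control in GF and in DM under every one of 16 alternatives and 10 fits that left out a sample, from -0.67 to -0.24 and from -0.66 to -0.47 in GF. Some of these could not move it. The mean of all probes, the missing filter and the dimmer miR-22 probe leave the only miR-22* probe as it is. Leaving out a DM sample keeps the GF difference at -0.56, and leaving out a GF sample keeps the DM difference at -0.41. Without scaling, GF minus control was -0.24 for miR-22* and -0.027 for miR-22, and with the authors' deposited log2 values, also unscaled, -0.25 and -0.017. GF minus DM turned to 0.29 for miR-22* and 0.12 for miR-22 without scaling, and likewise to 0.29 and 0.12 with the authors' values. Scaling multiplies a whole array by a common factor, so it moves every miRNA and their median nearly alike. Values relative to the median had to stay close for that reason, and nothing further is read from their closeness. Quantile normalization gave -0.17 for miR-22 in GF against control, and -0.19 relative to the median where the reported value is -0.29, and normexp background correction gave -0.22 for the ratio in DM against control. The cause of either was not tested. Unscaled miR-22* signal was 207.6 to 441.3 after subtraction, beside a local background of 48.1 to 50.7, so the background correction bears on miR-22*.

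Counts of miRNAs passing in GF against control were 13 as reported, 21 with the mean of all probes, 2 with the authors' values, 0 with no filter on dim probes (46 at an unadjusted limma p under 0.05), 0 with pairs under 1.2 also merged (35 unadjusted), 60 with 15 arrays as samples and 57 with slide as a block. In DM against control 3 passed with 15 arrays and with slide as a block, and in GF against DM 6 and 5 passed, and 1 without scaling and with normexp. With a sample left out the counts ran from 0 to 28, from 0 to 2 and from 0 to 6.

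Same-numbered arrays were not shown to be paired: deviations of 13 same-number pairs correlated at -0.53 to 0.47, and 7 of 15 arrays correlated best with an array of their own number. With the replicate number as a block over 15 arrays, miR-22* stood at -0.67 in GF and -0.42 in DM and miR-22 at -0.43 in GF, and 50, 4 and 1 miRNAs passed in GF against control, DM against control and GF against DM.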
